A study of Rattus norvegicus with 2 samples.

Results

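The genes described here encode the machinery of cell division: the mitotic cyclins and kinases, the spindle checkpoint, the centromere and kinetochore, the spindle motors and the proteins of cytokinesis. They were taken by gene symbol from a list of 50 genes. A transcript cluster (the set of array probes for the transcripts of a gene) was measured for 43 of them, among 15037 named genes in all, and each of the 43 had exactly 1 cluster. The other 7, Top2a, Bub1b, Cenpe, Cenpk, Spc24, Kif4a and Anln, had no cluster with that symbol alone in the annotation used. They were not analysed here, and whether the array holds probes for them was not examined. Spleen RNA of male rats injected intraperitoneally with cocaine (50 mg/kg, daily, day 7) was compared with that of male controls on Clariom S arrays, with 1 sample a group. The labels and methods do not say whether a sample was of a single rat or of pooled animals. Per the methods, the rats were late adolescent Sprague-Dawley animals, controls received saline, and the organs were taken a day after the last injection. The control sample carries the same treatment text as the cocaine sample, and its title and the series design were used to assign it to the control group. Signals are on the log2 scale, and each difference is the signal after cocaine minus that in the control, so that -1 stands for a 2-fold lower signal. Each group had 1 array and no replicate, hence neither an error nor a p-value, and genes are described only as past or within 2-fold on these 2 arrays. Where the text gives 2 signals of a gene, the first is that after cocaine unless stated otherwise.

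A dividing cell makes most of these transcripts only late in its cycle, from G2 phase into mitosis, and removes them afterwards, whereas resting cells hold little of them. Their transcription is held back in resting cells by the DREAM complex, which shares its MuvB core with the activating complexes that contain Mybl2 or Foxm1. In the rat, as in the mouse, the spleen remains a site of red cell formation, and its red pulp can hold dividing erythroid precursors. Dividing B cells of the germinal centres, plasmablasts, T cells and precursors of granulocytes and platelets are other sources of mitosis transcripts in this organ. In RNA from spleen tissue, fewer dividing cells and less of these transcripts per cell cannot be told apart.

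The promoters of these genes are shown first, and whether they bear on the differences between the arrays was not tested. RefSeq promoter sequences (assembly GRCr8, 250 bases before to 50 bases after a transcript start) were found for 35 of the 43 measured genes. Ccna2, Foxm1, Pbk, Aurkb, Incenp, Ube2c, Tpx2 and Racgap1 were not among them. They were searched on both strands for TTTGAA, the cell cycle genes homology region (CHR) that the MuvB core binds through Lin54, and for CCAAT, the box that the factor NF-Y binds. The 200 bases before the start are given 5′ to 3′ for Ccnb2, Cdk1, Prc1 and Mki67, which hold both motifs in that stretch. Of these, Cdk1 had the smallest difference (-2.53, against a median of -2.31 over the members). Other members with both motifs and larger differences than Cdk1 are not printed. Among them, Cenpf, Plk1 and Nusap1 have their TTTGAA after the start. Nek2 is given for a large difference without TTTGAA, and Bub3 as the only measured member with a higher signal after cocaine. Capitals mark TTTGAA and CCAAT on either strand (TTCAAA and ATTGG when read on the other strand).
Ccnb2 (chr8:79981659-79981858, - strand): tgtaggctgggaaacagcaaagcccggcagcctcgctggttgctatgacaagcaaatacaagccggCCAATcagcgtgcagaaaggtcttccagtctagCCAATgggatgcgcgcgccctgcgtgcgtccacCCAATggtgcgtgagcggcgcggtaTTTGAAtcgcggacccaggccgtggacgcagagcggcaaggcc
Cdk1 (chr20:19265093-19265292, + strand): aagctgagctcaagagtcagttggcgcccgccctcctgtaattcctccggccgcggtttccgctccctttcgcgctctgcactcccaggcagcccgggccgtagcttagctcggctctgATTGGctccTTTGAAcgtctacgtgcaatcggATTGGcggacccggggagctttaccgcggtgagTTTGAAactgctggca
Prc1 (chr1:143659281-143659480, + strand): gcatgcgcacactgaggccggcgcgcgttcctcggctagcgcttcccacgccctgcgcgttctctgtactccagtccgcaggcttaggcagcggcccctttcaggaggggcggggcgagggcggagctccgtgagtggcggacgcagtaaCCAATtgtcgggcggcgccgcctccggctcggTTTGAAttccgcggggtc
Mki67 (chr1:199952594-199952793, - strand): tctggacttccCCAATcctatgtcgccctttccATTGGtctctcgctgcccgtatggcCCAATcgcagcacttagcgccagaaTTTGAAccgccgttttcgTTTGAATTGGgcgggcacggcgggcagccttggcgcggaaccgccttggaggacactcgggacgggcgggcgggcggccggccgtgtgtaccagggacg
Nek2 (chr13:105936609-105936808, + strand): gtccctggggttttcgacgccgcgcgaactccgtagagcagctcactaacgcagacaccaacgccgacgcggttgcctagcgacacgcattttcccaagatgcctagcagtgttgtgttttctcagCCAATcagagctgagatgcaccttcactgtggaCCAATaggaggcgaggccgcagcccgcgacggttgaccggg
Bub3 (chr1:195760332-195760531, + strand): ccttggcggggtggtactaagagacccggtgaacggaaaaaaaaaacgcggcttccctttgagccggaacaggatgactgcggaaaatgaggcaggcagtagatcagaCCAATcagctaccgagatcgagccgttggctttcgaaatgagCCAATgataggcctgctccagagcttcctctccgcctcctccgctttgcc
The stretch before Ccnb2 holds 3 CCAAT boxes followed by 1 TTTGAA, and that before Prc1 holds 1 of each in the same order. Before Cdk1 there are 2 of each, with both boxes on the other strand. The Mki67 stretch has 2 TTTGAA and 4 boxes, and in its longest run of capitals a TTTGAA and a reversed CCAAT share a base, as they also do in Cdca8. The Nek2 stretch has 2 boxes only. In the stretch before Bub3 there are 2 CCAAT boxes and no TTTGAA, although TTCGAA, another spelling of the CHR element that was not marked, lies between them.

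TTTGAA was found in the promoters of 24 of the 35 members (68.6%), against 18.3% of all 33469 RefSeq promoters of the same length. For CCAAT the shares were 27 of 35 (77.1%) against 37.5%, and for both motifs together 20 of 35 (57.1%) against 7.41%. Members were counted by gene, and RefSeq promoters singly. Counted by gene, the shares in 12400 other measured genes were 15.4% for TTTGAA, 38.4% for CCAAT and 6.27% for both. Of 31 TTTGAA sites, 17 lay within the 120 bases before the start, 1 across it, 10 after it and 3 farther before it. The members with both motifs had a median difference of -2.47, and 19 of these 20 were lower by 2-fold or more after cocaine, as were 4.97% of all named genes. Of the 20, 17 were lower by as much with signals raised to the background level of the arrays, which is described with the signals. Their median was then -2.19. The 4 members with neither motif, Kif18b, Aurka, Kif2c and Bub1, had a median difference of -2.27, with 3 of the 4 past 2-fold. With signals raised in the same way, 2 of the 4 were past 2-fold and the median was -1.32. Of the members with TTTGAA only, 3 of 4 were past 2-fold (median -1.93), and of those with CCAAT only, 6 of 7 (median -2.01). With signals raised in the same way, these 2 medians were -1.64 and -1.75. Among the 12400 other measured genes, 7.08% of the 777 with both motifs and 4.66% of the 6529 with neither were lower by 2-fold or more. With TTTGAA only the share was 4.6%, and with CCAAT only 5.02%. Only the members were taken out of these other genes, so genes of other cell cycle lists were not excluded. Whether the classes differ was not tested. Motif matches are a description of letters in these windows. For 28 of the 36 promoters of the 35 members (Kif2c has 2), the transcript start differed from the 5′ end of the gene as RefSeq bounds it. Other starts were not examined.

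**Figure D1:**
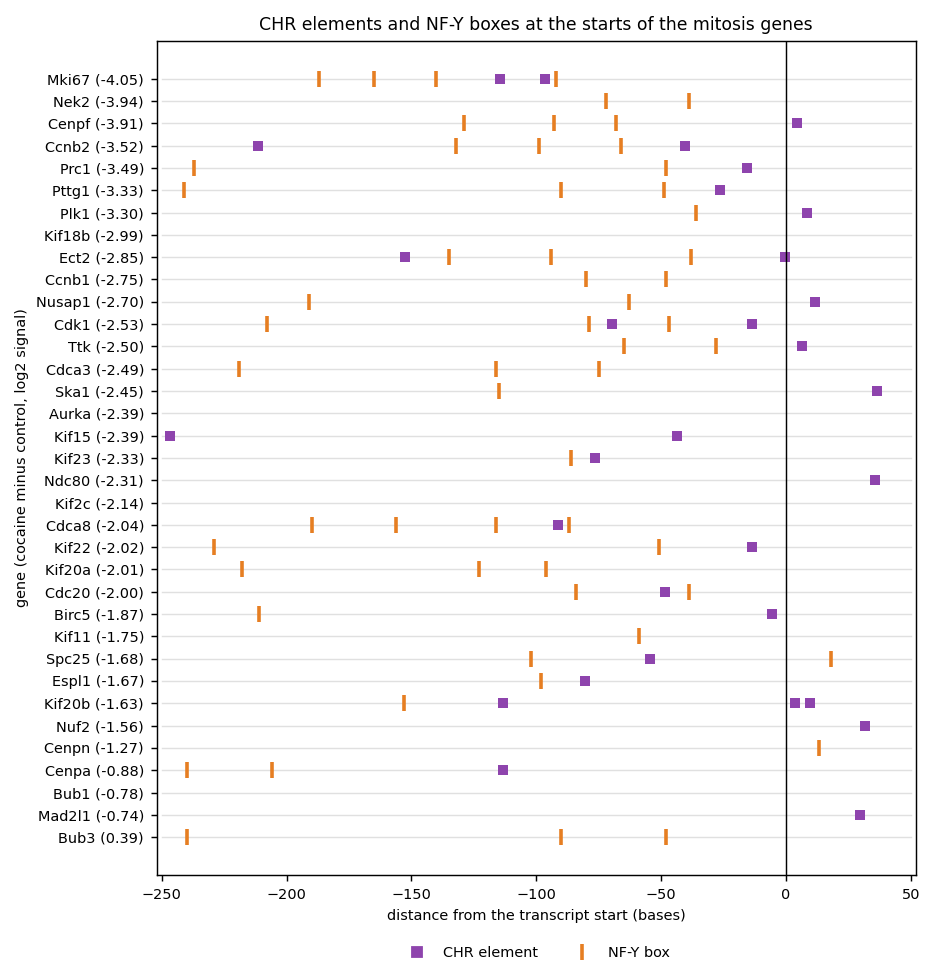
Positions of TTTGAA, labelled CHR element (purple squares), and NF-Y boxes (orange bars) in bases from the transcript start (vertical line) for the 35 measured members with a RefSeq promoter, ordered from the lowest difference between the arrays (top, in parentheses) to the highest. The members with both motifs number 20, and Bub3, at the bottom, has boxes but no TTTGAA.

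Of the 43 genes, 42 had a lower signal after cocaine (46.8% of all named genes did), and 39 (90.7%) were lower by 2-fold or more, whereas 4.97% of all 15037 named genes were lower by 2-fold or more. None was higher by 2-fold or more, against 2.28% of all named genes. The median difference was -2.31, which is 4.96-fold lower, and the median over all named genes was 0.04. At 4-fold the count was 27 of 43, against 1.64% of all named genes. The 4 genes within 2-fold were Bub1, Mad2l1, Bub3 and Cenpa. None of the 43 was at the ceiling of either array.

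Low signals limit part of these values. The 23 background features of the array reached 7.76 on both arrays. In 25 members both signals were above this level, and 22 of these were lower by 2-fold or more, with a median of -2.31 over the 25. In 15 members only the signal after cocaine was under it, and for these a lower bound is given below, computed with that signal set to the highest background feature. Both signals of Foxm1, Cenpa and Kif2c were under it, so their signals are given without a fold, although the count of 39 includes Foxm1 and Kif2c. With all signals under this level raised to it (raised signals from here on), 34 of the 43 were lower by 2-fold or more, against 3.68% of all named genes, and 20 were lower by 4-fold or more, against 1.28%. The median of the 43 was then -1.86.

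**Figure D2:**
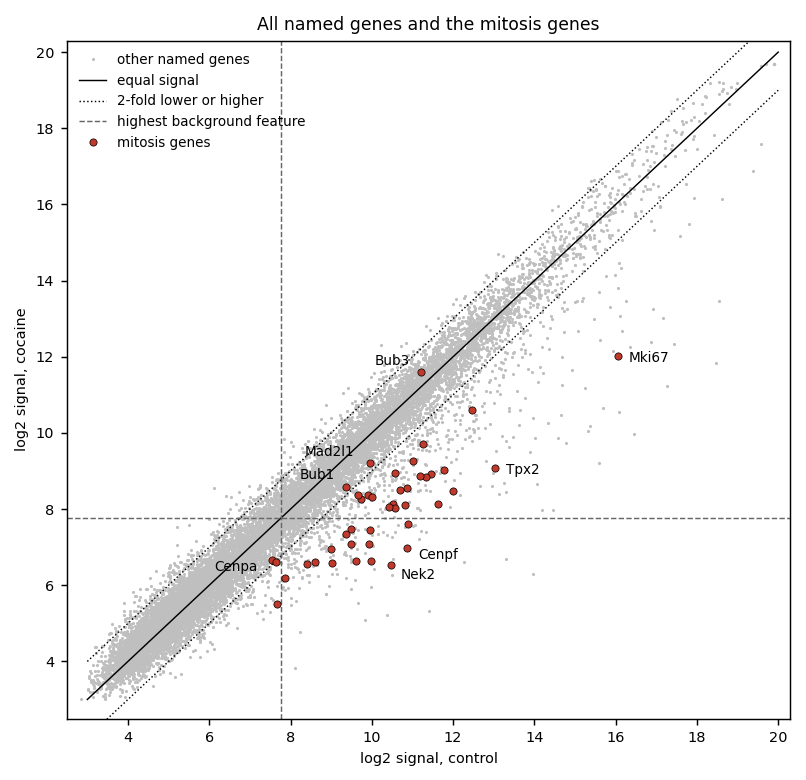
Log2 signal of each of 15037 named genes in the control (horizontal axis) and after cocaine (vertical axis), with the 43 mitosis genes in red. The solid line marks equal signals, dotted lines 2-fold differences and dashed lines the highest background feature. All mitosis genes except Bub3 lie under the line of equal signals, and 39 lie at or beyond the lower dotted line.

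Mki67, whose protein coats mitotic chromosomes and is the usual marker of dividing cells, had a signal of 12.02 after cocaine and 16.06 in the control, a difference of -4.05 or 16.5-fold.
The cyclins and their kinase were lower together. Ccnb2, a B-type cyclin that activates Cdk1 at mitotic entry, had signals of 8.47 after cocaine and 11.99 in the control (11.4-fold lower). The other B-type cyclin, Ccnb1, had signals of 9.04 and 11.79 in the same order (6.73-fold lower). For Ccna2, the A-type cyclin of S phase and early mitosis, they were 8.92 and 11.46 (5.81-fold lower), and Cdk1 itself, the kinase that drives mitosis, had 8.04 and 10.57 (5.79-fold lower). The differences of Ccna2 and Cdk1 were -2.54 and -2.53. Foxm1, the transcription factor of genes of late cycle phases, had signals of 6.62 and 7.63, both under the highest background feature.
The kinases of mitotic entry and the centrosome had a median difference of -2.84 (-2.56 with raised signals). Nek2, which separates the centrosomes, had a signal of 6.53 after cocaine against 10.48 in the control, and was at least 6.59-fold lower. Plk1, the polo-like kinase of centrosome maturation and mitotic entry, had 7.60 against 10.89 and was at least 8.80-fold lower. Aurka, the kinase of centrosomes and spindle poles, was 5.25-fold lower (8.12 against 10.52). Pbk, a kinase found in dividing cells, had 6.55 against 8.41, and its lower bound of 1.57-fold is within 2-fold.

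The spindle checkpoint, which holds anaphase until every kinetochore is attached, had the median nearest to 0 of the 10 groups of roles. It was -0.76 over 4 genes, and 1 of the 4 was lower by 2-fold or more. This was Ttk, the kinase that starts checkpoint signaling, with 7.46 after cocaine against 9.96 in the control (at least 4.59-fold lower). Bub1, the kinase that recruits checkpoint proteins to the kinetochore, had a signal of 8.59 against 9.38 (difference -0.78). Mad2l1, the inhibitor of Cdc20, had 9.21 against 9.95 (difference -0.74). Bub3 binds Bub1 and brings it to the kinetochore. Its signal was 11.60 after cocaine and 11.22 in the control, and its difference of 0.39 was the only one above 0. All 3 had both signals above the background features. With no replicate, it was not tested whether this group differs from the others.

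The chromosomal passenger complex corrects wrong attachments at the centromere and later moves to the spindle midzone. All 4 measured members were lower by 2-fold or more, also with raised signals. Birc5 (survivin) had a signal of 10.59 after cocaine and 12.46 in the control, which is 3.65-fold lower. The scaffold Incenp had 9.70 against 11.26 (2.95-fold lower), and the kinase of the complex, Aurkb, had 8.27 against 9.73 (2.75-fold lower). Cdca8 (borealin) had 6.95 against 8.99 and was at least 2.35-fold lower.
Anaphase starts when the anaphase-promoting complex (APC/C), a ubiquitin ligase, marks securin and the cyclins for destruction. Pttg1, which encodes securin, had a signal of 6.64 after cocaine and 9.97 in the control, at least 4.64-fold lower. Ube2c, the conjugating enzyme that works with the complex, was 5.14-fold lower (8.05 against 10.41). Cdca3, which acts through another ubiquitin ligase at mitotic entry, was 5.62-fold lower (8.85 against 11.34). The activator Cdc20 had 6.60 against 8.60, with a lower bound of 1.79-fold. Espl1, the separase that cuts cohesin, had 6.19 against 7.85, and its lower bound was 1.07-fold.

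At the kinetochore, 6 of 7 genes were lower by 2-fold or more, also with raised signals, with a median of -1.68 (-1.56 with raised signals). Cenpf, a large protein of the outer kinetochore, had a signal of 6.97 after cocaine against 10.88 in the control and was at least 8.70-fold lower. Ndc80, Nuf2 and Spc25 are subunits of the complex that grips microtubules. Their differences were -2.31, -1.56 and -1.68, from signals of 11.18, 9.91 and 10.00 in the control to 8.87, 8.36 and 8.32 after cocaine. Ska1, which tracks microtubules beside this complex, had 6.58 against 9.03 and was at least 2.42-fold lower. Cenpn, which recognizes the nucleosome of the centromere, was 2.41-fold lower (8.38 against 9.65). The histone variant of that nucleosome, Cenpa, had 6.65 and 7.54, both under the highest background feature.

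All 8 measured kinesins, the motors of the spindle, were lower by 2-fold or more, and 7 of the 8 were with raised signals. Kif11, which pushes the spindle poles apart, had a signal of 9.26 after cocaine and 11.01 in the control (3.36-fold lower). Kif15, which can stand in for Kif11, had 7.09 and 9.48 (at least 3.30-fold lower). Kif18b, which shortens astral microtubules, had 6.63 and 9.61 (at least 3.62-fold lower). Kif2c, which takes microtubules apart at the centromere, had 5.51 and 7.66, both under the highest background feature. Kif22 moves chromosome arms and had 7.48 against 9.49 (at least 3.33-fold lower). Kif20a, which brings the passenger complex to the midzone, had 7.34 against 9.35 (at least 3.03-fold lower). Kif20b, a motor of late cytokinesis, was 3.10-fold lower (8.94 against 10.58).
Proteins that build the spindle and its midzone had a median difference of -3.49 over 3 genes and no signal within the background features. Tpx2, which starts microtubule growth and activates Aurka, had a signal of 9.08 after cocaine and 13.03 in the control (15.5-fold lower). Prc1, which links the antiparallel microtubules of the midzone, was 11.2-fold lower (8.14 against 11.62), and Nusap1, which bundles microtubules, was 6.50-fold lower (8.11 against 10.81).
The genes of cytokinesis were also lower by 2-fold or more. Kif23 and Racgap1 form centralspindlin, which marks the place of division. Kif23 was 5.04-fold lower, with 8.54 after cocaine against 10.88 in the control, and Racgap1 4.60-fold lower, with 8.50 against 10.70. Ect2, the exchange factor that switches on RhoA for the contractile ring, had 7.08 against 9.93 and was at least 4.52-fold lower.

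**Figure D3:**
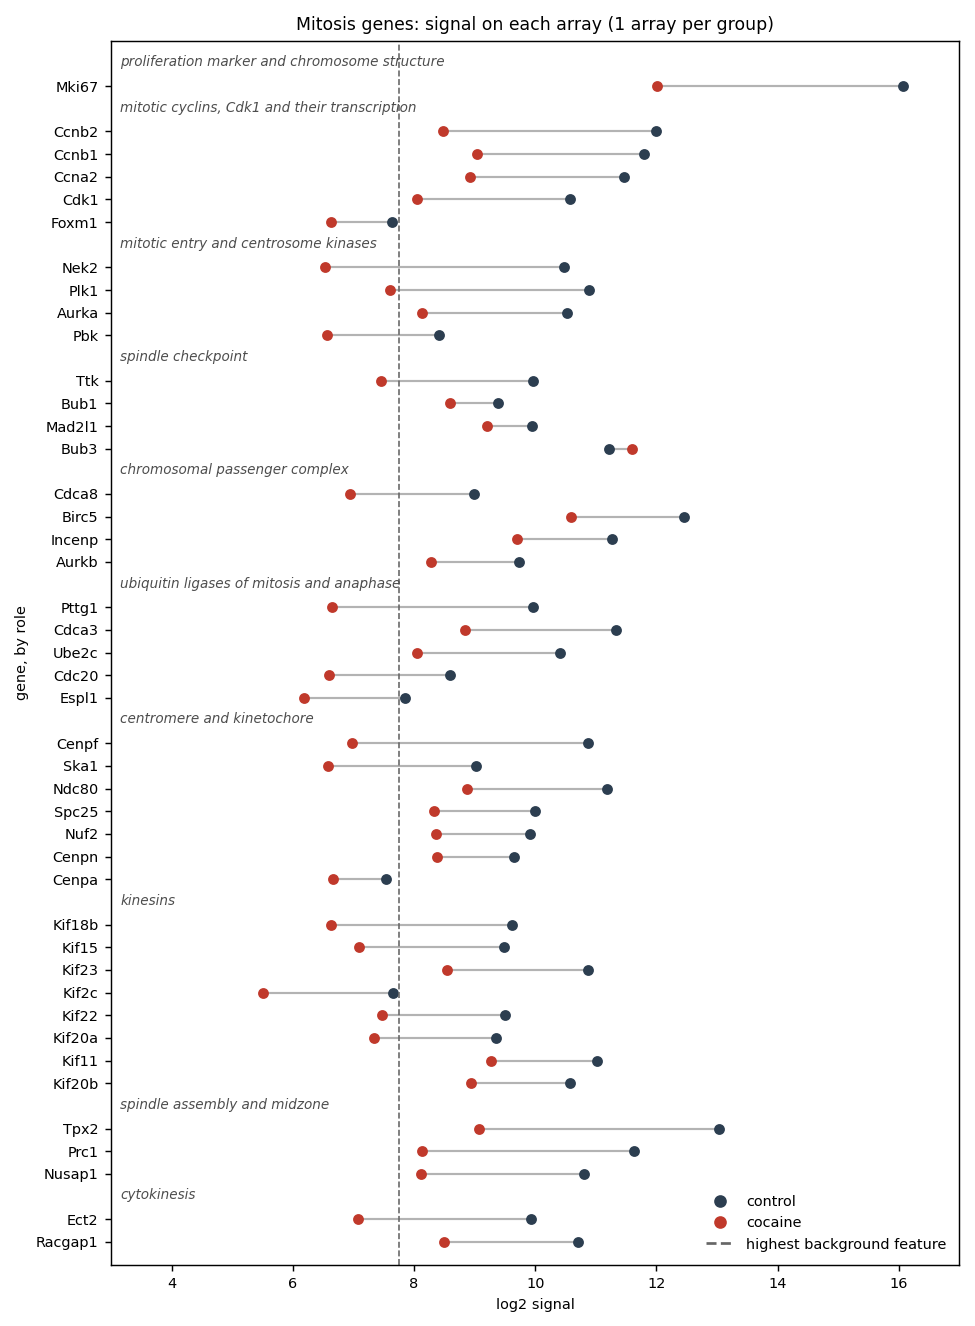
Log2 signal of each of the 43 measured genes in the control (dark points) and after cocaine (red points), 1 array each, arranged by role. The dashed line is the highest background feature (7.76). The red point lies to the left of the dark one for every gene except Bub3, and 18 red points lie left of the dashed line.

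Other genes of cell division were compared in lists that held no member. Of all named genes, 4.97% were lower and 2.28% higher by 2-fold or more, and 3.68% were lower with raised signals. Of 51 further genes of mitosis, 27 were lower by 2-fold or more and none was higher by as much, with a median difference of -1.25 (24 and -0.90 with raised signals). Both signals of 15 of the 51 were within the background features. Zwint, named after its value was seen, was 1.76-fold higher, with 11.73 after cocaine against 10.92 in the control. Cdc25b, a phosphatase that activates Cdk1, had 11.19 after cocaine against 15.25 in the control (16.7-fold lower). Spag5, a protein of the spindle and kinetochore, had 6.69 against 10.53 (difference -3.84). Its signal after cocaine was within the background features, so that it was at least 6.83-fold lower. Knl1, the kinetochore scaffold that binds Bub1, was 7.06-fold lower, and the phosphatase Cdkn3 6.61-fold lower. For the inner kinetochore, 9 of 12 genes were lower by 2-fold or more, with a median of -1.33 (6 and -0.998 with raised signals). Cenpi was 4.99-fold lower, and Cenpq was at least 3.32-fold lower. The lower bounds of Cenpu (1.19-fold) and Cenpt (1.89-fold) were within 2-fold.
The lists of condensin and cohesin and of the APC/C had medians nearer to 0. These complexes also act in cells outside mitosis, and whether that bears on the medians was not tested. Among 14 subunits and partners of the APC/C, 2 were lower by 2-fold or more and the median was -0.30. They were Fzr1, the coactivator that acts after Cdc20 (4.30-fold lower), and Ube2s, the enzyme that lengthens ubiquitin chains (3.17-fold lower). The subunits Anapc15 (-0.79) and Anapc1 (-0.73) were within 2-fold. At 1.5-fold, 5 of the 14 were lower, against 11.7% of all named genes. Of 13 genes of condensin and cohesin, the ring complexes that shape and hold chromatids, 2 were lower by 2-fold or more, with a median of -0.38. The list named 20 genes, and those without a cluster of that symbol alone included the condensin genes Ncapd2, Ncapg, Ncapg2 and Ncaph. Smc2, a core subunit of condensin, was 4.60-fold lower and Rad21, the cohesin subunit that separase cuts, 2.47-fold lower. Smc1a (-0.71) was within 2-fold, as was Ncapd3, with 7.29 after cocaine, within the background features, against 8.24 in the control. At 1.5-fold, 6 of the 13 were lower and 1 was higher, against 11.7% and 11.6% of all named genes.
DNA replication comes before mitosis in the cycle, and 24 of its 40 genes were lower by 2-fold or more, with a median difference of -1.15 (16 and -0.82 with raised signals). The list held Tk1 (thymidine kinase, 23.5-fold lower), Tyms (thymidylate synthase, 6.99-fold lower) and Dut (which removes dUTP, 5.62-fold lower). Orc1, of the origin recognition complex, had 5.59 after cocaine, within the background features, against 8.12 in the control, and its lower bound of 1.29-fold is within 2-fold. The medians of these lists were nearer to 0 than that of the 43 mitosis genes, and whether the lists differ was not tested.

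**Figure D4:**
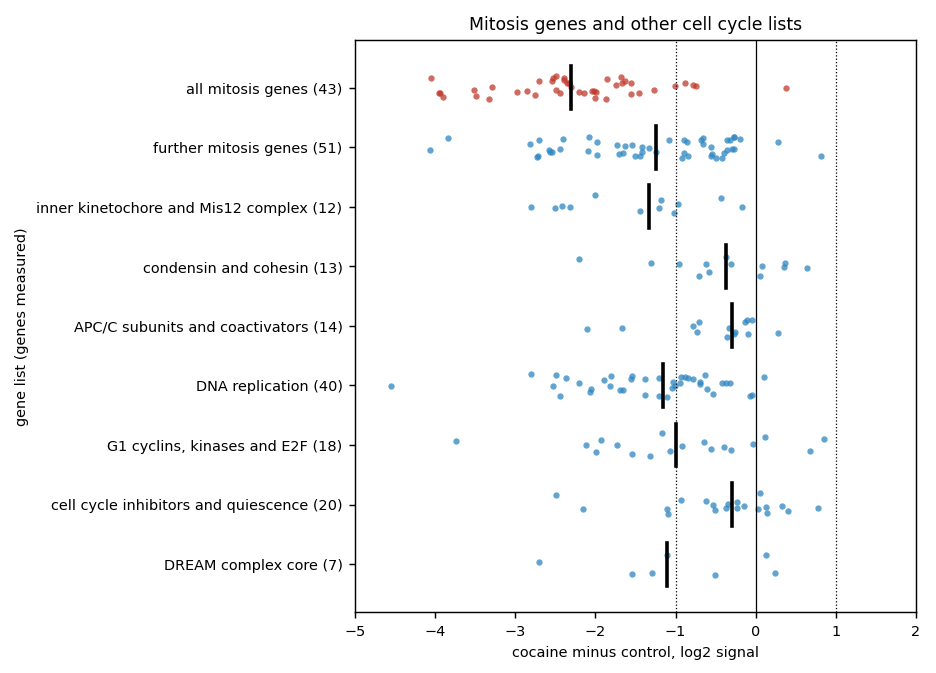
Difference of each gene (cocaine minus control, log2 signal) in the 43 mitosis genes (red) and in 8 other lists of cell cycle genes (blue), with the median of each list as a black bar. Dotted lines mark 2-fold differences, and vertical scatter within a list is only for display. The median is -2.31 for the mitosis genes, -1.15 for DNA replication and -0.30 for the APC/C.

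The labelled tissue was checked by its markers. B cell, T cell and red pulp macrophage markers were above the background features on both arrays (8 of 8, 11 of 11 and 11 of 11 measured), among them Cr2 (16.20 after cocaine and 15.32 in the control) and Vcam1 (15.35 and 15.00).
Markers of erythroid cells were also lower after cocaine. All 16 measured were lower by 2-fold or more, with a median difference of -4.97 (15 and -4.84 with raised signals). Their summed signal on the linear scale was 19818 after cocaine and 933028 in the control. None was listed at 0, and 7 of the 16 had a signal within the background features after cocaine. Hemgn, a nuclear protein of blood-forming cells, had a difference of -6.64. Epb42, a protein under the red cell membrane, was at least 73.7-fold lower. Of 11 markers of neutrophils and their precursors, 4 were lower by 2-fold or more (median -0.82, summed signal 6817 against 16513). Both signals of 7 of the 11 were within the background features, and with raised signals 3 were lower by as much and the median was 0.0005. The 4 included Ngp, a granule protein of precursors, which was at least 3.76-fold lower, and S100a9, with a difference of -1.39. Of 7 markers of megakaryocytes and platelets, 2 were lower by 2-fold or more (median -0.54, summed signal 13790 against 23059). With raised signals 1 was, Ppbp, a chemokine of platelets, with a difference of -2.13, and the median was -0.04. Gp5 had 7.28 after cocaine, within the background features, against 7.79 in the control. The part of these cell types in the differences of the mitosis genes was not tested.
The markers of lymphocytes and of stem and progenitor cells, which can also divide in the spleen, were read in the same way. These genes mark cell types and not dividing cells, so a change in the dividing cells of these types could not be read from them. None of 8 B cell, 5 germinal centre B cell, 8 plasma cell, 11 T cell, 7 NK cell and 4 stem and progenitor cell genes was lower by 2-fold or more, and the medians of these 6 lists lay between -0.04 (germinal centre) and 0.63 (plasma cells), or between 0.0005 and 0.46 with raised signals. Of all named genes, 4.97% were lower and 2.28% higher by 2-fold or more. Of the germinal centre markers, 4 of 5 had neither signal above the background features, and Bcl6 had signals of 8.66 after cocaine and 8.70 in the control. Likewise, 4 of 8 plasma cell, 2 of 7 NK cell and 2 of 4 stem and progenitor cell genes had neither signal above them. For such genes a fall could not be read. The progenitor gene Kit (7.81 after cocaine and 7.80 in the control) was near the highest background feature, and Meis1 had 10.03 and 9.64. Bank1 in B cells, Mzb1 and Txndc5 in plasma cells and Gzma in NK cells were higher by 2-fold or more (differences of 1.37, 1.04, 1.18 and 1.65). Within 2-fold, Cd3d in T cells (0.96) and Prf1 in NK cells (0.68) were higher. Fcer2 in B cells (-0.93) and Cd4 in T cells (-0.69) were lower, also within 2-fold. The 11 red pulp macrophage markers had a median of -0.37, and none was past 2-fold. The largest differences among them were those of C1qa (-0.75) and Csf1r (-0.64).

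**Figure D5:**
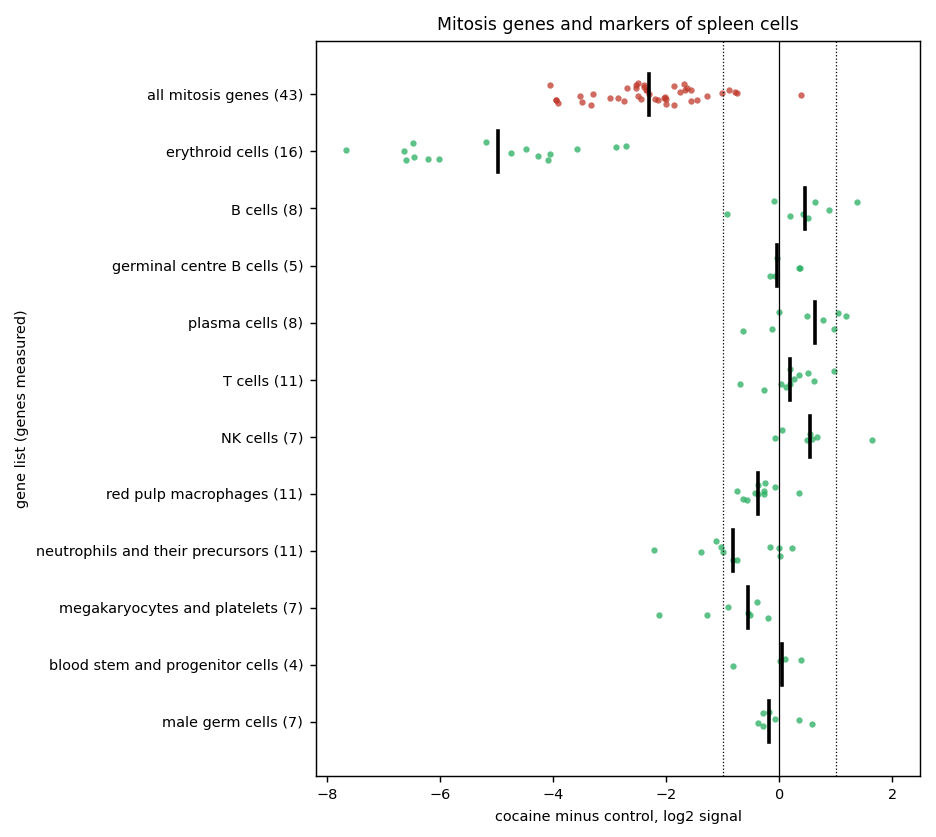
Difference of each gene (cocaine minus control, log2 signal) in the mitosis genes (red) and in 11 lists of cell type markers (green), with the median of each list as a black bar and 2-fold differences as dotted lines. Erythroid markers have a median of -4.97, and the medians of the B, T, NK and plasma cell lists lie above 0.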

How the data were processed

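Rat spleen RNA, 1 sample after cocaine and 1 control, was purified by the authors with TRIzol and an RNeasy kit with DNase I digestion and hybridized to Clariom S rat arrays. They deposited log2 signals per feature. How these were background corrected, summarised and normalized, and the build of the array annotation, is not stated in the methods or labels. The log2 scale and the direction were checked against cocaine to control ratios listed in the study. Both arrays were used as deposited, with 0 columns left out. Of 23188 transcript clusters, 15049 had exactly 1 gene symbol in the platform annotation and gave 15037 genes, each by its cluster with the highest mean signal. The median cluster signal was 6.97 on both arrays.
Genes past 2-fold, the threshold of the study, were counted and medians taken per list, without a test. Precision is limited by the number of arrays. The members and lists were chosen with earlier results of these data known. The text names all measured members and, where the higher signal reached the highest background feature, up to 4 genes with the largest difference of each cell cycle list and 2 of each marker list, with any gene past 2-fold against its list. Other genes were named after their values were seen. The alternatives were 4 scalings, a filter at the median, floors at the 25th percentile and the highest background feature, 1.5-fold and 4-fold thresholds, the mean over clusters and sense-strand motifs. Counting TTCGAA was added after the data were seen. The differences and the 4 scalings were tested on simulated data with known shifts and an assumed level of noise. The floors, list medians and motif counts were not part of that test, and the noise of these arrays is not known. Promoters are from RefSeq (GRCr8). Python 3.11.15, numpy 2.4.6, pandas 2.3.3, statsmodels 0.14.6 and matplotlib 3.10.9 were used.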

Additional observations from a re-analysis of the deposited data

How the results depend on the processing

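With 1 array per group, no replicate could be left out, and single signals carry no measure of error. No paired analysis was possible because each group holds 1 sample and the labels carry no replicate numbers. Over the 4 scalings, the filter, the 2 floors and the mean over clusters, the number of mitosis genes lower by 2-fold or more lay between 34 and 39 and their median difference between -2.33 and -1.86. Of these settings, the mean over clusters could not change the members, which had 1 cluster each. The filter could remove none, since their lowest control signal (7.54) was above the array median (6.97). Median centring could change little, since the median was 6.97 on both arrays. The scalings changed the median of all named genes by less than 0.1.
With signals raised to the highest background feature, Foxm1 and Kif2c lie on the floor on both arrays (0.0005, the difference between the floors), Espl1 is at -0.10, Pbk at -0.65, Cdc20 at -0.84, Cdca8 at -1.23, Ska1 at -1.27, Kif18b at -1.86 and Pttg1 at -2.21. Outside the members, Cenpu is at -0.25, Orc1 at -0.37, Cenpt at -0.92, Mybl2 at -1.26 and Cenpq at -1.73. The same floor gave medians of -0.90 for the further mitosis genes, -0.998 (just within 2-fold) for the inner kinetochore and -0.82 for DNA replication. Foxm1 was within 2-fold with 75th percentile centring (-0.92). The median of G1 cyclins, kinases and E2F was past 2-fold with the loess correction (-1.02) and with the filter (-1.17).
At 1.5-fold, a threshold that 11.7% of all named genes passed as lower and 11.6% as higher, 6 condensin and cohesin genes and 5 APC/C genes were lower, and 1 further mitosis gene, 1 condensin and cohesin gene, 2 of the G1 list and 1 inhibitor were higher. At 4-fold, passed as lower by 1.64% of all named genes, 13 further mitosis genes, 5 of the inner kinetochore, 1 of condensin and cohesin, 1 of the APC/C, 9 of DNA replication, 2 of the G1 list, 2 inhibitors and 1 of the DREAM core were lower. On the sense strand only, 11 members of 35 held both motifs (31.4%, against 2.23% of all promoters and 1.78% of other measured genes). With TTCGAA counted, 26 held a CHR element (74.3%, against 19.7%).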

Other observations

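Genes that act before mitosis were also read in 3 further lists, which share members with each other. Their counts stand beside shares of 4.97% of all named genes lower and 2.28% higher by 2-fold or more. Of 18 G1 cyclins, kinases and E2F genes, 9 were lower by 2-fold or more after cocaine and none was higher by as much, with a median difference of -0.995. Tfdp2, a partner of the E2F factors, had signals of 9.64 after cocaine and 13.38 in the control (13.4-fold lower). The E-type cyclins Ccne2 and Ccne1, which start S phase, were 4.35-fold and 3.97-fold lower, and the D-type cyclin Ccnd3 was 3.80-fold lower. Ccnd1 and Myc, which respond to growth signals, had differences of 0.85 and 0.68, and Ccnd1 was within the background features in the control (7.40). They were named after their values were seen.
Among 20 inhibitors of the cycle and genes of quiescence, 4 were lower by 2-fold or more, none was higher by as much and the median was -0.29 (0.0005 with signals raised to the highest background feature). The 4 were the forkhead factor Foxo3 (5.65-fold lower), the inhibitors Cdkn2c (within the background features after cocaine and at least 3.43-fold lower) and Cdkn1b (2.14-fold lower) and Rbl1, a relative of the retinoblastoma protein (2.15-fold lower). Cdkn1b was just within 2-fold with quantile normalization (-0.98). Of the core of the DREAM complex and its partners, 4 of 7 genes were lower by 2-fold or more. Mybl2, the subunit of the activating form, had a signal within the background features after cocaine and was at least 2.40-fold lower. E2f4, which brings the repressing form to promoters, was 2.92-fold lower and Lin54, the subunit that binds the CHR element, 2.45-fold lower. Rbl1 belongs to this list too. Male germ cell genes, a list of cells that a spleen does not hold, had 6 of 7 genes within the background features on both arrays and a median of -0.18. Prm2, of this list, had signals of 8.42 after cocaine and 8.71 in the control.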
